A study of Mus musculus with 6 samples.

Results

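The genes described here make, store and break down serotonin and histamine in the mouse stomach. They are 9 of the 39179 genes in the series table: Tph1, Ddc and Hdc for synthesis, Gch1 for a cofactor, Slc18a1 and Slc18a2 for vesicular transport, Maoa and Maob for breakdown, and Lmx1a, a regulator of serotonin-producing cells. Each was found by its symbol as 1 row of the table. They were chosen on RPKM differences between Sox2 KO and Sox2 WT libraries that were already known, so their values in that comparison are given as a description, with no test. The comparison asks how RNA levels in the stomach differ once Sox2, a transcription factor of the foregut, is deleted.

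RNA was sequenced from the pylorus, where the stomach opens into the duodenum, in 6 libraries, 3 of Sox2 WT and 3 of Sox2 KO mice, all of a C57BL/6 x 129 mixed strain. Both groups carried floxed Sox2 alleles (Sox2 fl/fl). Sox2 KO mice also had Rosa26CreER, a tamoxifen-activated Cre recombinase at a locus that is active in most tissues, whereas Sox2 WT mice had the unmodified Rosa26 locus. Both groups received tamoxifen at 8 weeks of age and were sampled 2 weeks later, at 10 weeks per the series text, although the age label of every library reads 8 weeks. The muscle layer was peeled off and the remaining epithelium and mesenchyme were used. Whether the libraries came from separate animals is not stated, and their spread may be partly technical. The groups are called WT and KO from here on, and values are listed in the order of replicates 1, 2 and 3. In such whole-tissue RNA, fewer cells of a type and less RNA per cell cannot be told apart.

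The targeted gene separated the groups as labelled. Sox2 was at 11.1, 9.03 and 10.9 RPKM (reads per kilobase of gene, scaled to sequencing depth) in the WT libraries and at 0.342, 0.210 and 0.420 RPKM in the KO libraries (log2 fold change -3.72, SE 0.147, limma adjusted p = 2.9e-04; exact two-sided permutation p = 0.1, the smallest that 3 against 3 can give). Between 22014173 and 32580529 reads per library were recovered in genes. Gastrin, the hormone that marks the pyloric region, was at 2766 to 6383 RPKM. Xist was at 36.3 and 33.3 RPKM in WT replicates 2 and 3 and at most 0.0124 RPKM elsewhere, so these 2 libraries were from females and the other 4, including all KO libraries, from males. Parietal cell genes, which mark acid-secreting glands of the neighbouring stomach body, also varied: Atp4a was at 307, 961 and 135 RPKM in WT and at 522, 526 and 256 RPKM in KO.

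Serotonin in the gut comes mainly from enterochromaffin cells, an enteroendocrine cell type of the epithelium. Tryptophan is hydroxylated by tryptophan hydroxylase, encoded outside the nervous system by Tph1, in a step that needs tetrahydrobiopterin, and aromatic amino acid decarboxylase, encoded by Ddc, completes the synthesis. Histamine is made from histidine in a single step by histidine decarboxylase, encoded by Hdc, in enterochromaffin-like cells of the acid-secreting mucosa and in mast cells. Serotonin is loaded into vesicles by the monoamine transporters VMAT1 (Slc18a1) and VMAT2 (Slc18a2), and histamine by VMAT2. Monoamine oxidases (Maoa and Maob) break down serotonin.

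The sequences shown are those of the genes for both steps of serotonin synthesis, Tph1 and Ddc, because these genes differed from each other in the libraries. Each gene has 2 annotated starts, and the 250 bases before the more upstream start are given. The window of the other start is not shown and was not searched for either gene. The sequences are from RefSeq on GRCm38.p6, 5′ to 3′ on the gene's strand, and capitals mark the letters of the SOX core motif ACAAAG on either strand. The Tph1 window is chr7:46672538-46672787 and the Ddc window chr11:11898145-11898394, both on the minus strand.
Tph1: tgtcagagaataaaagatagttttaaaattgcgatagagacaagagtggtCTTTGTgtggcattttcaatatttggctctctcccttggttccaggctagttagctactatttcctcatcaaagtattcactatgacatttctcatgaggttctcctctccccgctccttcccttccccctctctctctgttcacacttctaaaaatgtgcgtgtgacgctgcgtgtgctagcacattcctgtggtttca
Ddc: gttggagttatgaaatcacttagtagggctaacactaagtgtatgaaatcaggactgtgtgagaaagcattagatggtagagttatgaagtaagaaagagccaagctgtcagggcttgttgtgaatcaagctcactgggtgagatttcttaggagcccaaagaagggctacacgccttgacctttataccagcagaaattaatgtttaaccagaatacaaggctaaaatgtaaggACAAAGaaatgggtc
The window of Tph1 held these letters 200 to 195 bases before the start, and that of Ddc 15 to 10 bases before it. Promoters of 7 of the 9 genes were in the RefSeq table, and this motif or its variant ACAATG was found on either strand in these 2 of the 7, with no overlap between matches. Among 32851 promoter windows of the same length, 25.2% held at least 1 of the pair on either strand. A core motif of LIM homeodomain factors such as LMX1A, TAATTA, was in 0 of the 7 windows and in 4.84% of all windows. These matches describe letters only.

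Tph1 was the member with the largest difference in RPKM ratio among those with more than 0.5 RPKM. Its gene lies on chromosome 7 (46644641 to 46672537, minus strand, mm10), with no overlapping gene in the annotation. The level was 11.0, 6.88 and 11.4 RPKM in WT, from 1062, 768 and 1161 reads, and 2.22, 1.39 and 1.56 RPKM in KO, from 263, 161 and 211 reads. Every KO library lay below every WT library, and the lowest WT value was 4.66 RPKM above the highest KO value, more than the SD of either group (2.52 and 0.436 RPKM, n = 3 each). The KO mean was 17.6% of the WT mean. The log2 fold change on the log2(RPKM + 0.5) scale was -2.19 (SE 0.224), and it ran from -2.42 to -2.07 when each library was left out in turn. Against the 1 male WT library alone, as a fit with sex as a covariate gives it, the log2 fold change was -2.39.

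**Figure D1:**
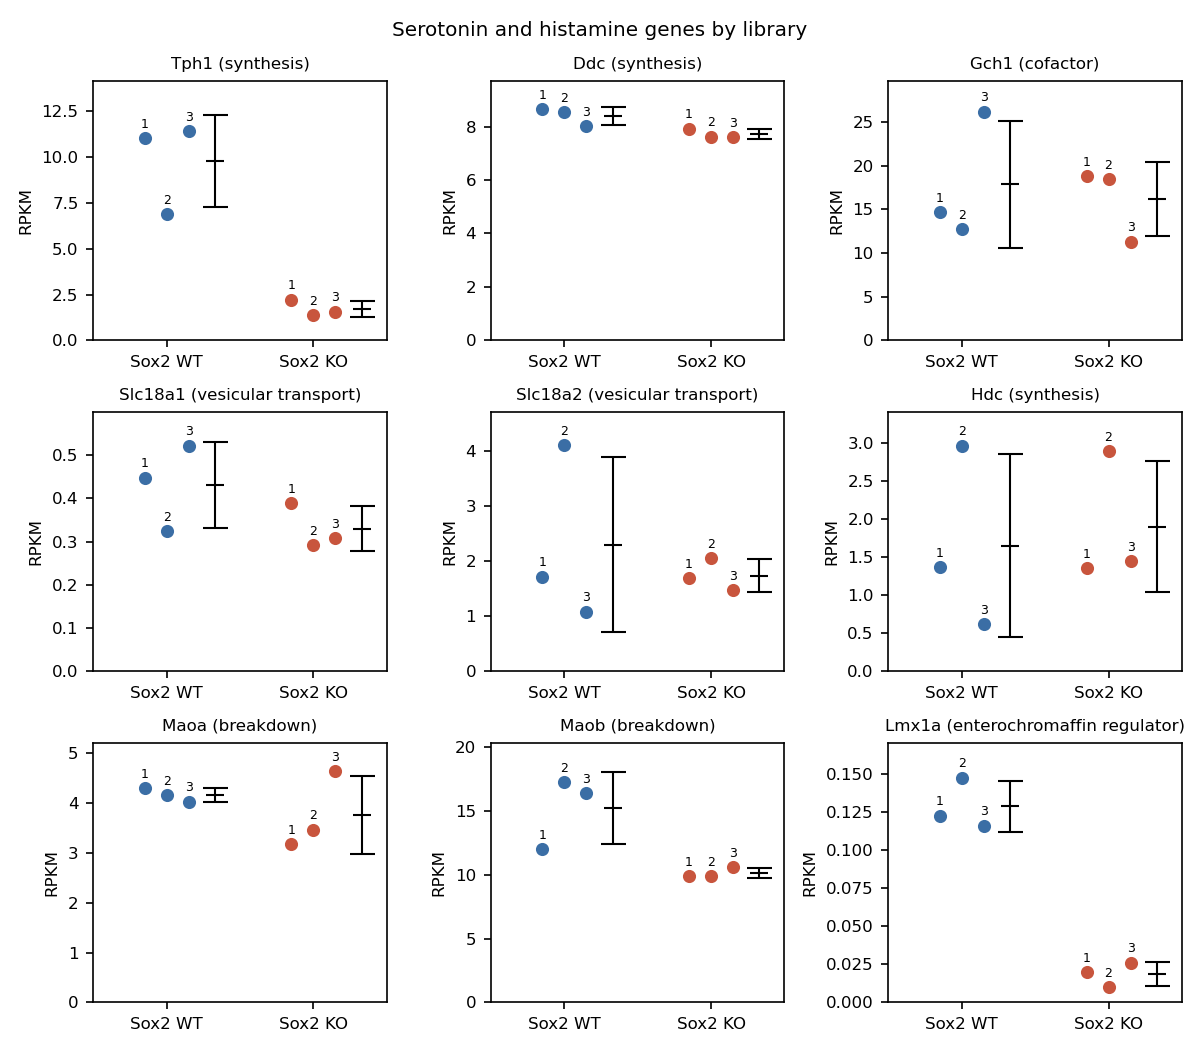
RPKM of the 9 genes in each library (y axes, linear, starting at 0); points are libraries numbered by replicate, and the bar beside them is the mean with 1 SD, n = 3 per group. Tph1 and Lmx1a are far lower in the 3 KO libraries, Maob is lower, Ddc is lower by a small gap of 0.0776 RPKM, and the groups overlap in the other 5 genes.

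The second enzyme of the pathway did not share this difference. Ddc (chromosome 11, 11814101 to 11898144, minus strand) was at 8.66, 8.53 and 8.00 RPKM in WT and 7.93, 7.63 and 7.59 RPKM in KO. The groups did not overlap, but the gap between them, 0.0776 RPKM, was smaller than the SD of WT, 0.347 RPKM (n = 3), and the KO mean was 91.9% of the WT mean. Ddc is also expressed in cells that make no serotonin. The ratio of Tph1 to Ddc, both per length of gene, was 1.28, 0.806 and 1.43 in WT, and 0.280, 0.182 and 0.206 in KO, so that Ddc exceeded Tph1 in every KO library.

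Gch1 encodes GTP cyclohydrolase, the rate-limiting enzyme for tetrahydrobiopterin. The gene (chromosome 14, 47153895 to 47189413, minus strand) was at 14.7, 12.8 and 26.2 RPKM in WT and 18.8, 18.4 and 11.3 RPKM in KO. The highest library was WT replicate 3 and the lowest KO replicate 3, and the groups overlapped (log2 fold change -0.10, SE 0.299). Its sign changed with the libraries used, from -0.31 without WT replicate 2 to 0.20 without WT replicate 3, and was 0.10 with sex as a covariate.

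Lmx1a, the LIM homeodomain transcription factor that acts upstream of Tph1 in enterochromaffin cells, was scarce but had a similar pattern. The gene (chromosome 1, 167689237 to 167848741, plus strand) was read 10, 14 and 10 times in WT and 2, 1 and 3 times in KO, which is 0.122, 0.148 and 0.116 RPKM against 0.0198, 0.0102 and 0.0261 RPKM. Summed over libraries and scaled by their depth, the rate of 34 reads in WT was 6.77 times that of 6 reads in KO (95% interval 2.81 to 19.7, exact binomial, counting error only). The level was under the filter of a mean of 0.5 RPKM, so Lmx1a was not in the fit across genes. Tph1 had a ratio of similar size, 5.63 times by the same measure (95% interval 5.16 to 6.14). For Slc18a1, whose groups overlapped, this ratio was 1.30 times (95% interval 1.04 to 1.62). Such intervals leave out the spread between libraries and are no test of the groups.

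The vesicular transporters overlapped between the groups. Slc18a1 (chromosome 8, 69037711 to 69089235, minus strand) was at 0.448, 0.324 and 0.522 RPKM in WT and 0.389, 0.292 and 0.307 RPKM in KO, also under the filter. By its start and end in the annotation it overlaps Atp6v1b2, a subunit gene of the vacuolar proton pump. Without strand information, reads in a shared stretch cannot be told apart, and how many lie there was not examined. Slc18a2 (chromosome 19, 59260896 to 59296012, plus strand) was at 1.72, 4.11 and 1.09 RPKM in WT and 1.69, 2.06 and 1.47 RPKM in KO. WT replicate 2 was the highest library and WT replicate 3 the lowest, and the 3 KO libraries lay between the extremes of WT. The log2 fold change of Slc18a2 was -0.18 (SE 0.361), 0.25 without WT replicate 2 and -0.52 without WT replicate 3.

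Hdc varied more between libraries than between groups. The gene (chromosome 2, 126593667 to 126619299, minus strand) was at 1.37, 2.97 and 0.619 RPKM in WT and 1.36, 2.89 and 1.45 RPKM in KO, from 71 to 378 reads. The highest WT library was 4.79 times the lowest. The log2 fold change was 0.25 (SE 0.419), and 0.67 without WT replicate 2 and -0.14 without WT replicate 3. WT replicate 2 had the highest and WT replicate 3 the lowest level of Hdc, Slc18a2 and Atp4a alike, and KO replicate 2 had the next highest of each. The same held for the ghrelin gene Ghrl and for Cckbr, a marker of enterochromaffin-like cells under the filter, so it was not particular to parietal cell genes. Other markers of enterochromaffin-like cells differed: Chga and Sstr2 were lowest in KO replicate 3, and Ptprn and Pcsk2 were highest in WT replicate 1. The histamine H2 receptor gene Hrh2, by which histamine drives acid secretion in parietal cells, had the same highest and lowest library, at 3.59 and 0.422 RPKM. The 5 parietal cell markers, all of them measured, summed to 590 to 3537 RPKM in WT and 1099 to 2036 RPKM in KO, and their part in the levels of Hdc and Slc18a2 was not tested.

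**Figure D2:**
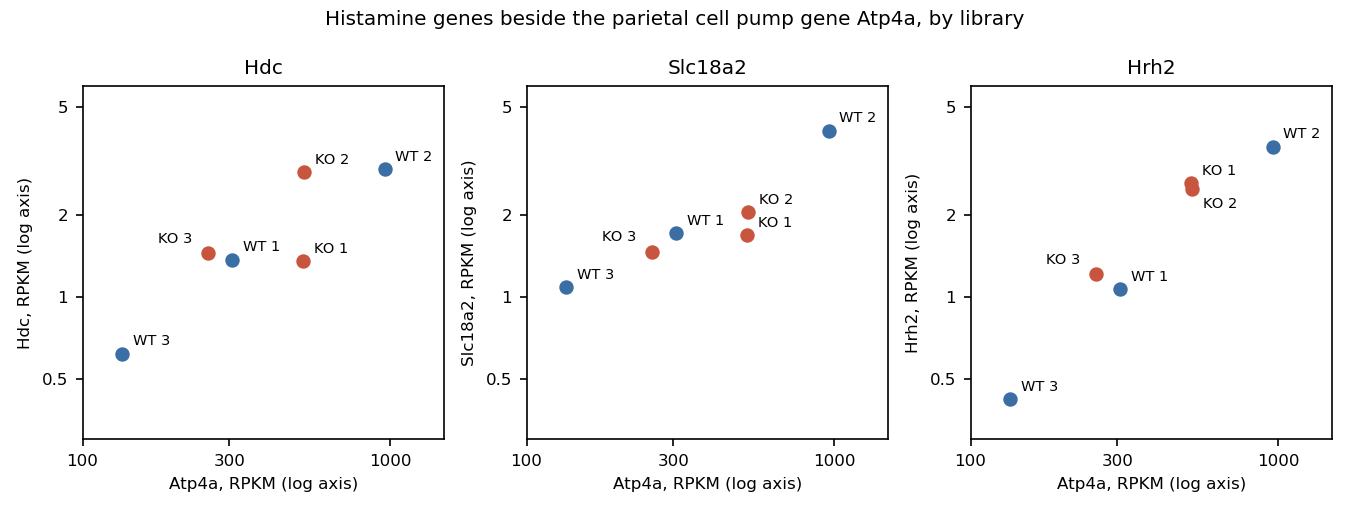
RPKM of Hdc, Slc18a2 and Hrh2 (y axes, log scale) against that of Atp4a, a parietal cell proton pump gene (x axis, log scale), with 1 point per library labelled by group and replicate. WT replicate 3 is lowest and WT replicate 2 highest on every axis, and the KO libraries lie between them.

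The monoamine oxidase genes lie next to each other on the X chromosome. Maob (16709282 to 16817366, minus strand) was at 12.0, 17.3 and 16.4 RPKM in WT and 9.91, 9.89 and 10.6 RPKM in KO, so every KO library was lower, and the KO mean was 66.5% of the WT mean. The highest 2 libraries were the females, WT replicates 2 and 3. The log2 fold change of Maob was -0.55 (SE 0.148) over all libraries and -0.23 with sex as a covariate, that is against the male WT replicate 1 alone; sex and genotype cannot be told apart for the rest. Maoa (16619698 to 16687818, plus strand) was at 4.30, 4.15 and 4.02 RPKM in WT and 3.17, 3.46 and 4.64 RPKM in KO, where KO replicate 3 was the highest of all 6 libraries (log2 fold change -0.14, SE 0.146). Maoa in the female libraries did not exceed that of the male WT library.

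**Figure D3:**
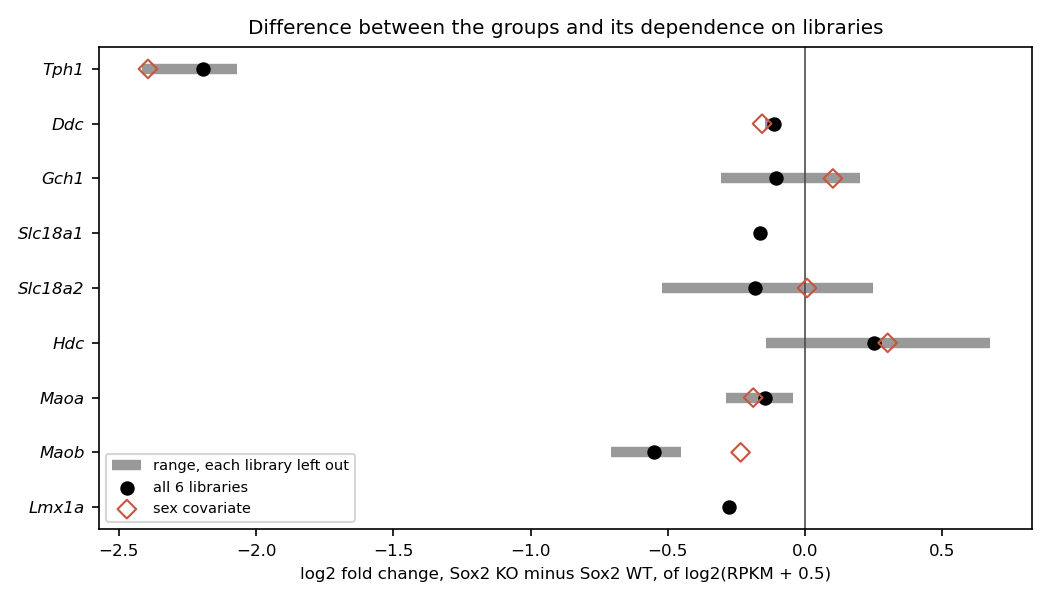
Difference between KO and WT in mean log2(RPKM + 0.5) for each gene (x axis). Filled points use all 6 libraries, grey bars span the values with each library left out, and open diamonds use sex as a covariate; Slc18a1 and Lmx1a, under the filter, have the filled point only. Tph1 stays below -2, Maob moves from -0.55 to -0.23, and Gch1, Slc18a2 and Hdc have bars on both sides of 0.

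In 4 of the 9 genes, Tph1, Ddc, Maob and Lmx1a, the 3 KO values lay below the 3 WT values, and in 5 they overlapped. Of the 7 in the fit, 3 were lower in this way, where 7.08% of all 14045 genes tested did not overlap in either direction and 2.99% were lower; since the members were chosen with these values known, nothing is read from that share. The same 4 genes were separated after rescaling by median ratios and after quantile normalization. By mean level in WT the order was Gch1 (17.9 RPKM), Maob (15.2), Tph1 (9.78), Ddc (8.40), Maoa (4.16), Slc18a2 (2.30), Hdc (1.65), Slc18a1 (0.431) and Lmx1a (0.129). In this order Gch1 and Maob, Tph1 and Ddc, and Slc18a2 and Hdc differed by less than the larger SD of the pair. In KO, Gch1 (16.2 RPKM), Maob (10.1), Ddc (7.72) and Maoa (3.76) led, and Hdc (1.90), Slc18a2 (1.74) and Tph1 (1.72) were within their spread of each other.

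Of 54 other genes in lists of serotonin, tetrahydrobiopterin, histamine, catecholamine and kynurenine metabolism, 18 had a mean of at least 0.5 RPKM and were tested. Limma called 0 at an adjusted p under 0.05, beside 0.0285% of all genes (0.0142% higher and 0.0142% lower), and voom on recovered reads also called 0. Of the 18, 0 had an unadjusted limma p under 0.05, beside 442 of all 14045 genes tested. Their median log2 fold change was 0.04, beside 0.02 over all genes tested. In 1 of the 18 the groups did not overlap, Htr1b, a serotonin receptor gene, at 0.553 to 0.628 RPKM in WT and 0.630 to 0.655 RPKM in KO, beside 4.09% of all genes that were higher without overlap.

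Of the 20 serotonin genes, 3 passed the filter. The neuronal hydroxylase gene Tph2 was listed at 0 in every library except KO replicate 3, at 0.0103 RPKM. The serotonin transporter gene Slc6a4 was at most 0.159 RPKM. Aldh2, an aldehyde dehydrogenase that acts after monoamine oxidase, was at 88.9 ± 9.65 RPKM in WT and 91.5 ± 4.49 RPKM in KO (SD, n = 3 each). For Sult1a1, a sulfotransferase gene, the log2 fold change was 0.28 (SE 0.446). Of 8 other tetrahydrobiopterin genes 7 were tested, and their groups overlapped. The highest log2 fold change among them was 0.14 (SE 0.142), for Spr, the sepiapterin reductase gene. Pcbd1 and Qdpr encode the enzymes that recycle the cofactor, and Qdpr was at 30.6 ± 1.71 and 31.1 ± 6.04 RPKM in WT and KO (SD, n = 3 each). Pcbd1 was at 45.9 ± 11.4 and 48.1 ± 11.2 RPKM in WT and KO (SD, n = 3 each). Of the 10 histamine genes 4 were tested, among them Hnmt, the histamine methyltransferase, with a log2 fold change of -0.04 (SE 0.139), Hrh2 with 0.48 (SE 0.519) and the aldehyde dehydrogenase gene Aldh7a1 with 0.18 (SE 0.147). Aoc1, the gene of the gut diamine oxidase, was listed at 0 in all 6 libraries. Among the catecholamine genes Th, the tyrosine hydroxylase gene, was under the filter, at 0.402 ± 0.0726 RPKM in WT and 0.365 ± 0.135 in KO (SD, n = 3 each) and Pnmt was lower still. Of 10 kynurenine genes, which divert tryptophan, 3 were tested, with log2 fold changes from -0.03 for Ccbl2 to 0.05 for Afmid, and Ccbl1 in between. The indoleamine dioxygenase gene Ido1, under the filter, ranged from 0.0197 to 0.713 RPKM within WT.

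Markers of enterochromaffin cells differed among themselves. Of 10 listed genes 6 were tested, 0 passed with limma's adjusted p, and 1 had an unadjusted p under 0.05, beside 442 of all 14045 genes tested. That gene was Chgb, a granin of secretory granules, at 154, 100.2 and 129.6 RPKM in WT and 56.8, 68.4 and 67.5 RPKM in KO (log2 fold change -0.97, SE 0.176, limma adjusted p = 0.298); the groups did not overlap, beside 2.99% of all genes that were lower without overlap. Slc38a11, an amino acid transporter gene of enterochromaffin cells under the filter, was at 0.373, 0.451 and 0.336 RPKM in WT and 0.180, 0.177 and 0.170 RPKM in KO. The rate of its 141 WT reads was 2.22 times that of its 76 KO reads (95% interval 1.66 to 2.97, counting error only). Slc38a11 was named after its values were seen, so the interval is no test of the groups. The groups overlapped for the adrenergic receptor gene Adra2a (log2 fold change 0.32, SE 0.159), for the sensory channel genes Trpa1 (log2 fold change 0.07, SE 0.216) and Piezo2 (0.11, SE 0.176), for the serotonergic transcription factor gene Fev (-0.35, SE 0.193) and for Chga (-0.49, SE 0.298). Ucn3 was listed at 0 in all libraries, and Tac1 and Reg4 were at most 0.212 and 0.0408 RPKM. The list summed to 204 to 254 RPKM in WT and 130 to 163 RPKM in KO, most of it from Chga and Chgb.

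Transcription factors that form enteroendocrine cells in general differed by less in RPKM ratio than Tph1 or Lmx1a. On the log2(RPKM + 0.5) scale, which understates low genes, Lmx1a was at -0.28, and Insm1 (-0.44) and Neurog3 (-0.43) were lower. Of 9 genes 8 were tested, 7 had a negative log2 fold change, the median was -0.28, and limma called 0. Of the 8, 2 had an unadjusted limma p under 0.05, beside 442 of all 14045 genes tested. The groups did not overlap in 3: Neurog3, which starts the endocrine lineage (1.96 ± 0.366 against 1.32 ± 0.184 RPKM), Insm1 (3.87 ± 0.733 against 2.72 ± 0.436 RPKM) and Pax6 (0.986 ± 0.0917 against 0.755 ± 0.142 RPKM; SD, n = 3 each, WT first). Over all genes tested, 2.99% were lower without overlap, and each of these 3 had a limma adjusted p of 0.9995. Isl1 (0.03, SE 0.229) and Rfx6 (-0.21, SE 0.163) overlapped between the groups. The median was -0.36 for 5 tested genes of enterochromaffin-like cells, all overlapping between the groups (Pcsk2 and Ptprn were each at -0.36), and 0.36 for 6 tested genes of other hormone cells. Among the latter Cck, Gip and Pyy, hormone genes of the intestine, were higher in every KO library, with log2 fold changes of 1.79 (SE 0.526), 1.12 (SE 0.316) and 0.57 (SE 0.187) and a smallest limma adjusted p of 0.938, where 4.09% of all genes tested were higher without overlap. Sct, the secretin gene, also of the intestine and under the filter, lay the other way, at 0.535, 0.665 and 0.450 RPKM in WT and 0.0482, 0.346 and 0.381 RPKM in KO. It was read 9, 13 and 8 times in WT and 1, 7 and 9 times in KO, so the KO libraries were unequal. The rate of its 30 WT reads was 2.11 times that of its 17 KO reads (95% interval 1.13 to 4.07, counting error only). Sct was named after its values were seen, so the interval is no test of the groups. Somatostatin (Sst, 0.15, SE 0.359) and ghrelin (Ghrl, -0.01, SE 0.579) overlapped between the groups. Within each library the ratio of Tph1 to Chgb was 0.0718, 0.0686 and 0.0881 in WT and 0.0390, 0.0203 and 0.0231 in KO, so Tph1 was lower beside this granin as well.

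**Figure D4:**
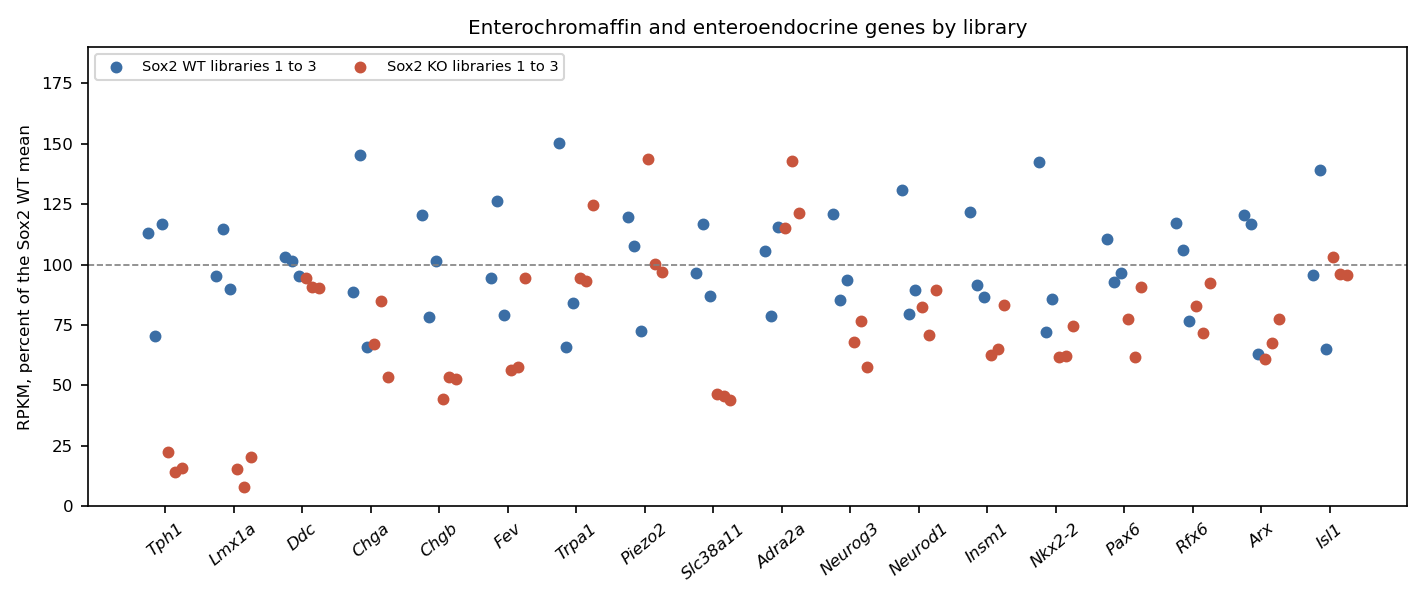
RPKM of Tph1, Lmx1a and Ddc and of the enterochromaffin and enteroendocrine list genes with a mean of at least 0.2 RPKM, as percent of the WT mean (y axis, from 0), with 1 point per library in replicate order. The 3 KO libraries are at 14.2% to 22.7% for Tph1, 7.90% to 20.3% for Lmx1a, 44.1% to 46.5% for Slc38a11 and 44.5% to 53.5% for Chgb, while most other genes overlap.

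Mast cells, which in mice can express Hdc, Slc18a2 and Tph1, were present at low levels. Of 15 mast cell markers 12 were tested and 0 passed with limma, and the median log2 fold change was 0.04. Of the 12, 3 had an unadjusted limma p under 0.05, beside 442 of all 14045 genes tested. The list summed to 27.8 to 37.1 RPKM in WT and 30.8 to 56.7 RPKM in KO. The carboxypeptidase gene Cpa3 was at 3.91, 3.04 and 2.91 RPKM in WT and 3.14, 5.01 and 3.78 RPKM in KO. The groups did not overlap in 3 markers, all higher in KO: Mcpt1 (1.30 ± 0.785 against 4.87 ± 3.24 RPKM) and Mcpt2 (6.25 ± 0.405 against 10.6 ± 3.71 RPKM), proteases of mucosal mast cells, and Hpgds (0.903 ± 0.118 against 1.63 ± 0.304 RPKM), a prostaglandin D synthase gene that tuft cells also express. Over all genes tested, 4.09% were higher without overlap. Of the 12 tested markers 6 had a positive log2 fold change, Cpa3 among them (0.23, SE 0.182), and 6 a negative one. The most negative were -0.18 for Mcpt4, -0.17 for Il1rl1 and -0.15 for Kit. The tryptase genes Tpsab1 (log2 fold change 0.08, SE 0.400) and Tpsb2 (-0.05, SE 0.244) overlapped. The receptor gene Ms4a2 was at most 0.183 RPKM, and the 3 basophil markers summed to at most 0.265 RPKM, with Prss34 listed at 0 in all libraries, Mcpt8 listed at 0 in WT and in KO replicate 1, and Cd200r3 above 0 in every library.

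Other cell types of the tissue had these values. All 6 tested tuft cell markers, of 8, were higher in every KO library, with log2 fold changes of 0.85 for Pou2f3, 0.93 for Dclk1, 1.02 for Alox5ap, 1.07 for Trpm5, 1.24 for Gng13 and 1.47 for Sh2d6. Their median was 1.04 and the smallest limma adjusted p was 0.111, for Gng13, where 4.09% of all genes tested were higher without overlap. The median was 0.26 for 5 parietal, 0.21 for 4 surface mucous, -0.04 for 3 tested neuronal and glial, -0.01 for 6 smooth muscle and 0.01 for 6 fibroblast genes. Limma called 0 in each of these lists and 0 of all 66 markers tested. Of the 66, 15 had an unadjusted limma p under 0.05, a larger share than the 442 of all 14045 genes tested. The lists were chosen with earlier results of these data known, so nothing is read from that share. The most abundant epithelial genes of these lists were Atp4b (log2 fold change 0.26), Gif (0.42) and Atp4a (0.27) of parietal cells, and Tff1 (0.16), Gkn2 (0.29) and Gkn1 (0.25) of surface mucous cells. In the layers below the epithelium they were S100b (0.01) and Uchl1 (-0.04) of neurons and glia, Acta2 (-0.00), Tagln (0.06) and Actg2 (-0.13) of smooth muscle, and Col3a1 (0.11), Dpt (-0.01) and Dcn (-0.04) of fibroblasts. The part of any listed cell type, enterochromaffin cells included, in the levels of the amine genes was not tested.

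The genes whose profile over the 6 libraries was most like that of each of 3 members were sought among 11244 genes, by the root mean square difference between deviations of log2(RPKM + 0.5) from each gene's own mean. For Tph1 these were Gsdmc2 (0.169), Stc2 (0.459), Gsdmc4 (0.476), Cyp2d26 (0.549) and Trerf1 (0.561), each lower in every KO library. Gsdmc2, a gasdermin gene, was at 5.61, 4.45 and 7.06 RPKM in WT and 0.801, 0.594 and 0.808 RPKM in KO, and shared with Tph1 its lowest WT library, replicate 2. For Hdc the nearest were Gpm6a (0.153), Gc (0.167), Ifi27 (0.171), Mfap4 (0.179) and Ckb (0.180), all overlapping between the groups. For Maob they were Gstm3 (0.115), Cxcl14 (0.121), Ephb3 (0.137), Sowaha (0.140) and Cxcl17 (0.143). All 5 were lower in every KO library and had, like Maob, their 2 highest values in the female libraries. WT replicate 2 was the highest for each except Cxcl17. Because these genes were picked for their likeness over the same libraries, the patterns they share with Tph1, Hdc or Maob follow from that choice.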

How the data were processed

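RNA from 6 pyloric samples, 3 Sox2 WT and 3 Sox2 KO, was sequenced and deposited as RPKM per gene by the authors, against mm10, with CASAVA 1.7 and STAR named in the submitters' processing notes. For the counting tool and the annotation: not given in the sources used here. Ensembl IDs were matched to GENCODE mouse release 21 for positions (37607 matched). Whole reads were recovered from the RPKM: all values of 100% of the 23538 genes above 0 were whole multiples within 0.001 reads. Genes with very low values in all libraries, such as Tph2, met this criterion with 0 reads, so the 100% does not test their recovery. Reads of a gene may also be too low where its counts share a factor with its length. Recovered totals were 22014173 to 32580529 reads, 91.2% to 109% of the depth that the RPKM use, and intervals from them cover counting error only.

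Genes with a mean of at least 0.5 RPKM, 1 row per symbol, were fitted as log2(RPKM + 0.5) with limma 3.58.1 (trend, R 4.3.3), with Benjamini-Hochberg adjustment over 14045 genes and a threshold of 0.05. Fold changes on this scale understate those of low genes. The fit was also run on simulated data with the same noise variance for every gene, which checks the code and not its performance in these libraries. Called non-overlapping is a gene whose 3 values of one group all lie above those of the other. Alternatives were other pseudocounts (0.1 and 1), filters, scalings, a replicate block, sex as a covariate, voom on recovered reads, each library left out and, added after seeing the data, the 4 male libraries alone.

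The members and lists were chosen with earlier results of these data known. From each list the rule named genes past the threshold, up to 6 whose groups do not overlap, and the 3 with the highest mean; a few of these are not reported here. Tph2, Slc6a4, Aoc1, Ido1, Fev, Trpa1, Piezo2, Slc38a11, Sct, Mcpt4, Il1rl1, Kit, Ucn3, Tac1, Reg4, Cpa3, Ms4a2 and Prss34 were named after their values were seen. The 5 genes most like Tph1, Hdc and Maob were taken among tested genes with a mean of at least 1 RPKM.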

Additional observations from a re-analysis of the deposited data

How the results depend on the processing

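Over all genes limma called 4 genes, against 1 with the replicate block, 1 with sex as a covariate, 8 by voom on recovered reads, 0 in the male libraries alone, and 1 to 8 when each library was left out. It called 7 without Sox2 WT replicate 1, 8 without Sox2 KO replicate 1, and 1 without Sox2 WT replicate 3 or Sox2 KO replicate 2. Genes whose groups did not overlap numbered 995, against 1763 with no filter on low values, 6814 in the male libraries alone and 1450 to 2868 with each library left out, where fewer libraries separate more easily. The count of cell type markers called was 0, and 0 to 1 with each library left out, the 1 being Cck without Sox2 KO replicate 1. Sox2 in the male libraries alone had a log2 fold change of -3.82 (limma adjusted p = 0.154). Among the members, 112 alternative values moved by less than 1 SD between replicates and 2 by more. Maob was the gene concerned, at -0.23 in the fit that adds sex and again among males only. Same-numbered libraries correlated at 0.00879, 0.097 and -0.074 in their deviations from group means, so the numbers were not taken as pairs, and Sox2 WT replicate 3 correlated best with Sox2 KO replicate 1 (0.165). The block changed no other count. With 1 male Sox2 WT library, sex and genotype are poorly separated, and Lmx1a rests on 34 and 6 reads.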
